A study of Mus musculus with 6 samples.

Results

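Imprinted genes are transcribed mainly from the copy inherited from 1 parent, and their RNA was followed here in the mouse brainstem. The set held 41 gene symbols chosen by name from well-known imprinted clusters, of which 40 had an entry in a table of 18058 genes and all 40 reached a mean of at least 0.1 CPM (counts scaled to the size of the library). Phlda2 was not analysed here. Whole brainstems were taken at 1 month of age from 3 wild type mice (WT, C57BL/6J) and 3 mice labelled Rag1-/- (B6.129S7-Rag1tm1Mom/J), and total RNA was sequenced. The Rag1 deletion is carried in every cell of the animal and removes mature T and B lymphocytes, and none of the 6 mice was described as carrying another allele or treatment. The labels number the libraries from 1 to 3 within each genotype, and these are taken here as separate mice. The comparison of the genotypes addresses which brainstem transcripts differ when mature lymphocytes are missing. Sex was not balanced between the genotypes, as the levels of Xist and Ddx3y below show.

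At an imprinted cluster, DNA methylation laid down in the egg or the sperm marks a control region on 1 parental copy. That mark decides which copy of the neighbouring genes is transcribed, often together with a long noncoding RNA or a block of CTCF binding. Several imprinted genes are known for high levels in the brain, in particular in the hypothalamus, and for roles in growth, feeding and maternal care. Gene RNA was summed over both parental copies in these data, so the parent of origin was not measured, and the allele named for each gene below is textbook background. In whole tissue, fewer cells of a type and less RNA per cell cannot be told apart.

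The estimated depth was between 31600000 and 46400000 reads per library, and 3 reads corresponded to 0.0646 to 0.0951 CPM. Rag1 itself read 0.236, 0.388 and 0.115 CPM under the WT label and 2.60, 4.02 and 2.90 CPM under the Rag1-/- label, so the targeted transcript ran against the label. The deleted part cannot be seen in a gene total, and the libraries are therefore called by their labels. Levels of Xist, which marks female cells, were 172 and 177 CPM for WT replicates 1 and 2 and 0.462 to 2.93 CPM elsewhere. Ddx3y, a gene of the Y chromosome, was at 0.283 and 0.215 CPM in those 2 libraries and at 45.2 to 56.2 CPM in the others. By these genes WT replicates 1 and 2 were female, and WT replicate 3 and all libraries labelled Rag1-/- were male. Sex, which the labels do not give, was thus mixed with genotype, and only WT replicate 3 matches the Rag1-/- libraries in it. WT replicate 3 stood apart in pituitary and hypothalamus transcripts: 8 pituitary genes, Gh and Pomc among them, summed to 662 CPM there and to 5.17 to 62.1 CPM in the other 5 libraries. All 6 oligodendrocyte genes examined were higher in the libraries labelled Rag1-/- at unadjusted p of at most 0.05, against 2.27% of all genes tested. None of them had an adjusted p under 0.05. They summed to 24198 to 25583 CPM there and to 18658 to 21780 CPM in WT. None of 9 neuron genes passed the unadjusted threshold. All 10 choroid plexus genes examined had negative log2 fold changes, with a median of -0.42, and 3 (30%) had an unadjusted p of at most 0.05, against 9.29% of all genes tested being lower at that p. They summed to 1003 and 1260 CPM in WT replicates 1 and 2, to 502 CPM in WT replicate 3 and to 569 to 651 CPM under the Rag1-/- label. Rag1-/- replicate 2 stood apart as well: the hindbrain position genes Hoxb2, Hoxb3, Hoxa3 and Hoxb5, of which none was called, summed to 1.62 CPM there and to 9.27 to 28.1 CPM elsewhere.  The part of these tissue differences in the results below was not tested.

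Most imprinted genes lay slightly lower in the libraries labelled Rag1-/-. Of the 40, 34 had a negative log2 fold change (Rag1-/- minus WT, on the log2(CPM + 0.1) scale) and 6 a positive one, with a median of -0.11 against -0.05 over the 16762 genes tested. Of all genes tested, 67.7% were negative, against 85% of the imprinted genes. The imprinted genes divided into 27 negative and 13 positive after median-of-ratios rescaling (67.5% negative, against 53.1% of all genes) and into 29 and 11 after quantile normalization (72.5%, against 49.1%). Without WT replicate 3 they divided into 26 and 14, and their negative share of 65% then lay next to the 65.7% of all genes. The median log2 fold change was -0.066 after median-of-ratios rescaling, against -0.0092 over all genes, and -0.074 after quantile normalization, against 0.0022. Without WT replicate 3 it was -0.067, against -0.047. With all libraries as deposited, the single values ran from -0.50 for Magel2 to 0.39 for Mkrn3. None of the 40 had an adjusted p under 0.05 by limma-trend, a test on log values that borrows variance across genes, while 8 of all genes tested did (0.0477%). At unadjusted p of at most 0.05, 14 imprinted genes (35%) were lower, against 9.29% of all genes tested, and 1 (2.5%) was higher, against 2.27%. A gene past this unadjusted threshold is said below to be called. Without WT replicate 3, 12 were lower (30%, against 9.31% of all genes), made up of 10 of the 14 together with Copg2 and Impact. Without Rag1-/- replicate 1 only 7 of the 14 were lower (17.5%, against 5.18%), and without Rag1-/- replicate 2 it was 11 of them (27.5%, against 8.23%). With quantile normalization 8 were lower (20%, against 3.82% of all genes) and 2 higher (5%, against 5.1%). Rescaling by median of ratios likewise gave 8 lower (20%, against 4.34%). Limma without trend gave 8 lower (20%, against 7.67%) and 2 higher (5%, against 2.12%). Of the calls among the imprinted genes, 6.67% were higher as deposited, 11.1% after rescaling by median of ratios and 20% after quantile normalization. These shares rest on 1, 1 and 2 higher genes. Over all genes tested, higher and lower calls numbered 380 and 1558 as deposited. They numbered 801 and 727 after that rescaling and 855 and 640 after quantile normalization.

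**Figure D1:**
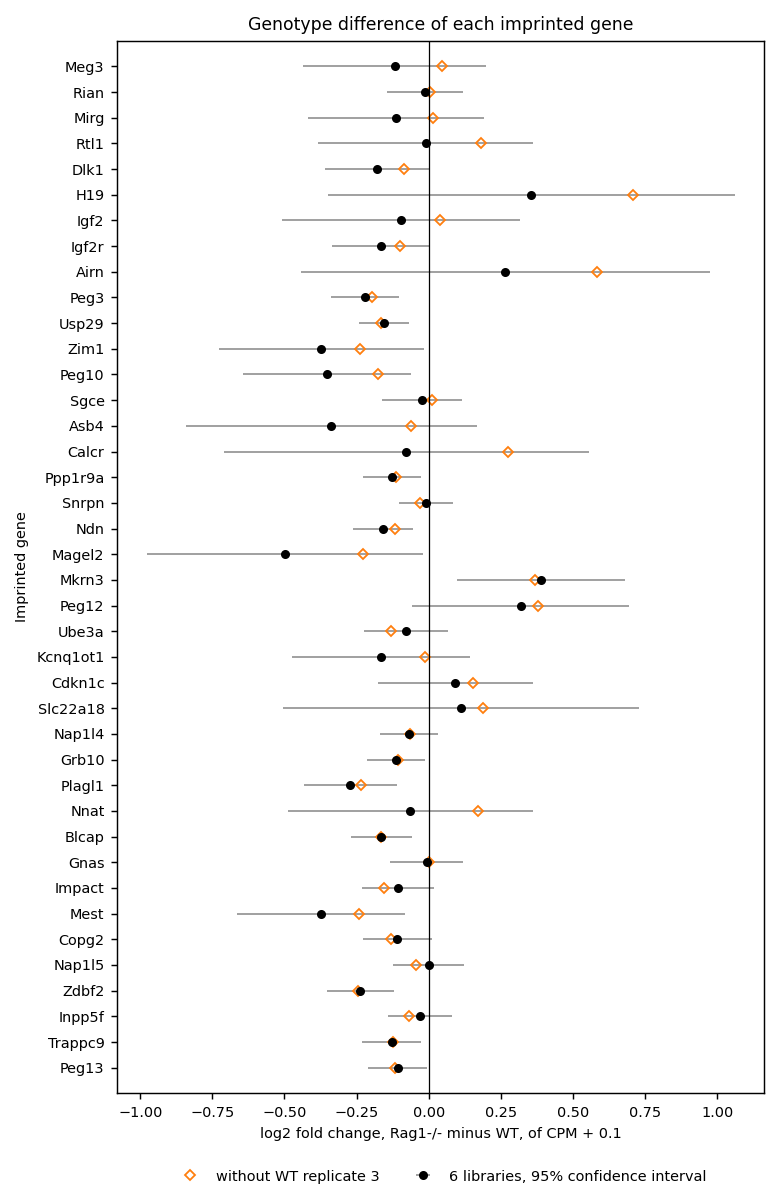
Log2 fold change (x axis, Rag1-/- minus WT, of CPM + 0.1) of the 40 imprinted genes (y axis, ordered by cluster), from 3 WT and 3 Rag1-/- libraries. Black points with grey bars give the limma-trend value and its 95% confidence interval, and open diamonds the value without WT replicate 3. Of the 40 points, 34 lie left of 0, and the diamond of Magel2 moves from -0.50 to -0.23.

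In 11 of the 40 genes (27.5%) every library labelled Rag1-/- lay below every WT library, against 14.4% of all genes tested, and in 2 (5%) every such library lay above, against 3.98%. For these 13 a two-sided exact permutation test returned p = 0.1, which is the smallest that 3 libraries against 3 allow. The 11 were Peg3, Usp29, Peg10, Ppp1r9a, Ndn, Grb10, Plagl1, Blcap, Zdbf2, Trappc9 and Peg13, and the 2 were Mkrn3 and Peg12.

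**Figure D2:**
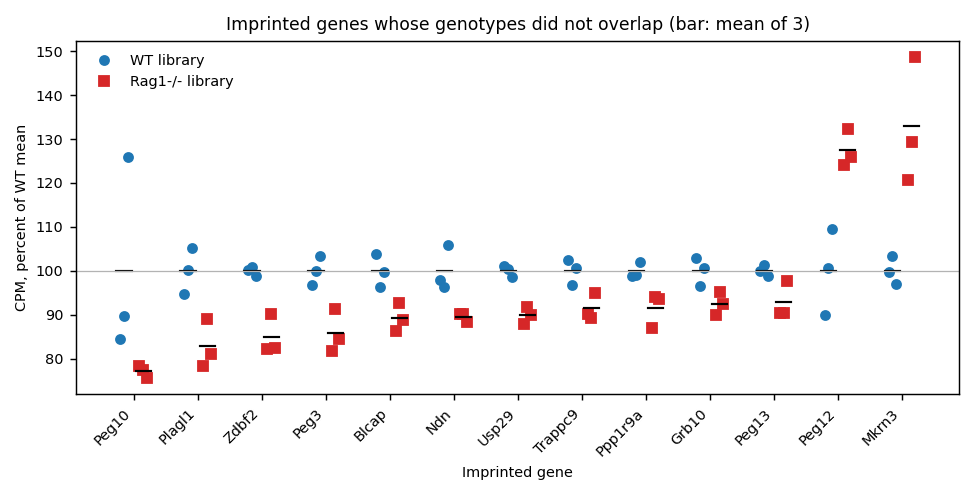
CPM as a percentage of the WT mean (y axis) for the 13 imprinted genes (x axis) whose genotypes did not overlap; blue circles are WT libraries, red squares are libraries labelled Rag1-/-, and black bars are means of 3. Peg10 has the widest WT spread, with WT replicate 3 at 123 CPM, whereas the WT circles of Usp29 and Zdbf2 nearly coincide.

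In the Peg3 cluster on chromosome 7 all 3 genes were called lower. Peg3 (chr7:6705960-6730419, minus strand, mm10) encodes a paternally expressed zinc finger protein known from maternal behaviour. It was at 437, 451 and 466 CPM under the WT label and 369, 413 and 381 CPM under the Rag1-/- label, and the groups did not overlap. The log2 fold change was -0.22 (SE 0.05, limma-trend unadjusted p = 0.00247, adjusted p = 0.300). Usp29 (chr7:6730583-6967219, plus strand), a paternally expressed ubiquitin protease, starts on the other strand and was at 110.1, 109 and 107 CPM under the WT label and 95.8, 99.95 and 97.8 CPM under the Rag1-/- label. WT and Rag1-/- libraries were again separate, and the log2 fold change was -0.15 (SE 0.04, limma-trend unadjusted p = 0.00332, adjusted p = 0.319). Zim1 (chr7:6675443-6696432, minus strand), a maternally expressed zinc finger gene next to Peg3, was at 4.96, 4.89 and 6.52 CPM under the WT label and 3.93, 5.01 and 3.64 CPM under the Rag1-/- label. WT replicate 3 was its highest library and Rag1-/- replicate 2 lay among the WT values. For Zim1 the log2 fold change was -0.37 (SE 0.16, limma-trend unadjusted p = 0.0419, adjusted p = 0.421). The Zim1 call was lost without WT replicate 3, Rag1-/- replicate 1 or Rag1-/- replicate 3, with log2 fold changes of -0.24, -0.33 and -0.28. It was also lost with median-of-ratios rescaling (-0.33), quantile normalization (-0.30) and limma without trend. The calls of Peg3 and Usp29 held in each of the 6 fits that left out 1 library, with log2 fold changes from -0.27 to -0.19 for Peg3 and from -0.17 to -0.14 for Usp29.

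Peg3 and Usp29 are read in opposite directions with 163 bases between their starts, and the stretch between them is shown because both genes were lower in every library labelled Rag1-/-. It lies at chr7:6730420-6730582 (GRCm38.p6, plus strand). A search on both strands found in it neither the hexamer TGCCGC, the core of the site bound by the imprint-keeping protein ZFP57, nor CCATNTT, a core of the YY1 site.
Peg3-Usp29: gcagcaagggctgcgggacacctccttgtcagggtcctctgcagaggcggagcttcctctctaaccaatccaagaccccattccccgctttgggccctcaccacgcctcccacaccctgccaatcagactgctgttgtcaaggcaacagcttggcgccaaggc

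In the Snrpn-Ube3a cluster, the region of Prader-Willi and Angelman syndromes in people, neighbouring genes lay on opposite sides of WT. Ndn (necdin, a paternally expressed neuronal protein, chr7:62348277-62349927, plus strand) was at 294, 289.7 and 318 CPM under the WT label and 271, 271 and 266 CPM under the Rag1-/- label. Its groups did not overlap, and the log2 fold change was -0.16 (SE 0.05, limma-trend unadjusted p = 0.00788, adjusted p = 0.340). Magel2 (chr7:62376979-62381640, plus strand), a paternally expressed regulator of protein trafficking in hypothalamic neurons, was at 7.93, 8.74 and 14.7 CPM under the WT label and 6.96, 8.05 and 6.38 CPM under the Rag1-/- label. The highest value was that of WT replicate 3, and Rag1-/- replicate 2 lay above WT replicate 1. Over all libraries the log2 fold change was -0.50 (SE 0.21, limma-trend unadjusted p = 0.0428, adjusted p = 0.423). The Magel2 call was lost without WT replicate 3, where its value was -0.23, and also without Rag1-/- replicate 1 or Rag1-/- replicate 3, with -0.49 and -0.42. Median-of-ratios rescaling (-0.46), quantile normalization (-0.44), limma without trend and the absence of a filter on low values ended it too. Mkrn3 (chr7:62417593-62420139, minus strand), a paternally expressed ubiquitin ligase known as a brake on puberty, was the 1 imprinted gene higher at unadjusted p of at most 0.05, at 2.10, 2.18 and 2.04 CPM under the WT label and 2.54, 2.72 and 3.13 CPM under the Rag1-/- label. Every library labelled Rag1-/- exceeded every WT library, and the log2 fold change was 0.39 (SE 0.13, limma-trend unadjusted p = 0.0144, adjusted p = 0.359). Leaving out Rag1-/- replicate 3 lowered the Mkrn3 value to 0.31 and ended its call. Peg12 (chr7:62461871-62464510, minus strand), a paternally expressed gene without introns of the FRAT family of Wnt regulators, was at 0.732, 0.820 and 0.891 CPM under the WT label and 1.01, 1.08 and 1.03 CPM under the Rag1-/- label. The groups of Peg12 were separate too, but the log2 fold change was 0.32 (SE 0.17, limma-trend unadjusted p = 0.0868, adjusted p = 0.490). Peg12 passed the unadjusted threshold with quantile normalization (0.43) and in limma without trend, as the second higher gene there beside Mkrn3. Both rested on few reads: the lowest library held about 71 reads of Mkrn3 and 31 of Peg12.

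Snrpn, the paternally expressed splicing factor gene of the same cluster, was at 471, 467 and 449 CPM under the WT label and 451, 462 and 464 CPM under the Rag1-/- label. The libraries of both genotypes interleaved, and the log2 fold change was -0.01 (SE 0.04, limma-trend unadjusted p = 0.831, adjusted p = 0.949), with a 95% confidence interval from -0.10 to 0.08. Ube3a, the ubiquitin ligase transcribed from the maternal copy in neurons, was at 65.5, 67.0 and 59.3 CPM under the WT label and 57.2, 64.9 and 59.7 CPM under the Rag1-/- label. Its groups overlapped, and the log2 fold change was -0.08 (SE 0.06, limma-trend unadjusted p = 0.259, adjusted p = 0.655). Leaving out 1 library moved the Ube3a value between -0.13, without WT replicate 3 or Rag1-/- replicate 2, and -0.04, without WT replicate 2 or Rag1-/- replicate 1, and none of these fits made a call.

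The 250 bases before the RefSeq starts of Ndn, Mkrn3 and Peg12 are shown because these 3 neighbours were separated by genotype in different directions. They lie at chr7:62348027-62348276 (plus strand), chr7:62420154-62420403 (minus strand) and chr7:62464511-62464760 (minus strand) of GRCm38.p6, each written 5′ to 3′ on the strand of its gene. Capitals mark a YY1 core, read here on the opposite strand; the start used for Mkrn3 differs from the deposited one. No TGCCGC was found in the 3 windows.
Ndn: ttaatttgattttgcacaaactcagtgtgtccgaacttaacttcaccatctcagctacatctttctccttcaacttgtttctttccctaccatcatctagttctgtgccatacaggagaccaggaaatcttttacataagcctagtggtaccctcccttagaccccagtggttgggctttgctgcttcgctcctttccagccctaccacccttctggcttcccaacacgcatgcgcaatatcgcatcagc
Mkrn3: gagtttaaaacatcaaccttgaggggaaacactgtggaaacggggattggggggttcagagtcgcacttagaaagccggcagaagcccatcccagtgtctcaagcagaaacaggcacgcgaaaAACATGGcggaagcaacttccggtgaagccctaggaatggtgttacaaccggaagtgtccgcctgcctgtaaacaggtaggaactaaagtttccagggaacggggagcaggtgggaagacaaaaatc
Peg12: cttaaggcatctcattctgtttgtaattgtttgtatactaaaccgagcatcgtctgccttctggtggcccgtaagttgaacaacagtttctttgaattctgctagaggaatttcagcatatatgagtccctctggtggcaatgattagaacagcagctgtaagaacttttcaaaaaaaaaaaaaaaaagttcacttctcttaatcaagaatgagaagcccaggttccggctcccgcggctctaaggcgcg

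Zdbf2 had the smallest p of the 40. This paternally expressed gene on chromosome 1 (chr1:63200358-63314575, plus strand) encodes a zinc finger protein with a role in growth and feeding after birth. It was at 44.6, 45.01 and 44.1 CPM under the WT label and 36.6, 40.2 and 36.7 CPM under the Rag1-/- label, and its WT libraries differed by less than 1 CPM. The log2 fold change was -0.24 (SE 0.05, limma-trend unadjusted p = 0.00134, adjusted p = 0.265), and leaving out any 1 library moved the value between -0.28 and -0.21 and kept the call. The window before its start (chr1:63200108-63200357, plus strand, GRCm38.p6) is shown because it holds 3 copies of the ZFP57 hexamer TGCCGC, in capitals, of which 1 is on the opposite strand (GCGGCA). It was chosen for these copies, so nothing is read from their number, and the other RefSeq window of Zdbf2 holds none.
Zdbf2: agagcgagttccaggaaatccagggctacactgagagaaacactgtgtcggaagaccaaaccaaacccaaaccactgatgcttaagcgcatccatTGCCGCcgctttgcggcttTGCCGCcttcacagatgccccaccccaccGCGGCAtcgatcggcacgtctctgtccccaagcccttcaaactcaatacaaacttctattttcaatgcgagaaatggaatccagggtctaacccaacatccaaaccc

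Of the imprinted genes, 31 had RefSeq promoter windows, 47 in all. TGCCGC stood in 9 of these windows (19.1%, against 8.68% of the 32817 RefSeq promoters of this length), of which 2 are windows of Mest only 3 bases apart. Counted by gene, it stood before 8 of the 31 (25.8%), namely Zdbf2, Calcr, Mest, Copg2, Nap1l5, Zim1, Plagl1 and Meg3, against 9.84% of 26994 genes with a window. CCATNTT stood in 6 (12.8%), against 12.4% of all promoters. The median number of CpG per window was 10, against 6 over all promoters.

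Plagl1 and Grb10, each taken here as a locus of its own, are growth regulators. Plagl1 (chr10:13090788-13131695, plus strand), a paternally expressed zinc finger factor that restrains cell division, was at 18.0, 19.1 and 20.002 CPM under the WT label and 14.9, 16.9 and 15.4 CPM under the Rag1-/- label. The highest Rag1-/- library lay below the lowest WT library, and the log2 fold change was -0.27 (SE 0.07, limma-trend unadjusted p = 0.00435, adjusted p = 0.328). This call held in each fit that left out 1 library, with values from -0.33 to -0.23. Grb10 (chr11:11930499-12037420, minus strand), an adaptor protein that dampens insulin and IGF receptor signalling and is read from the paternal copy in neurons, was at 80.3, 75.3 and 78.6 CPM under the WT label and 70.2, 74.2 and 72.1 CPM under the Rag1-/- label. Its groups were separated by a narrow gap, and the log2 fold change was -0.11 (SE 0.04, limma-trend unadjusted p = 0.0315, adjusted p = 0.398). The Grb10 call was lost, with log2 fold changes from -0.11 to -0.09, without WT replicate 1, WT replicate 3, Rag1-/- replicate 1 or Rag1-/- replicate 3. Median-of-ratios rescaling and quantile normalization (both -0.07), limma without trend and the term for Xist described below ended it too.

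The Peg10-Sgce cluster on chromosome 6 held 2 lower genes. Peg10 (chr6:4747306-4760516, plus strand), a paternally expressed gene derived from a retrotransposon, was at 82.6, 87.8 and 123 CPM under the WT label and 76.6, 75.7 and 74.1 CPM under the Rag1-/- label. The groups did not overlap, but WT replicate 3 lay far above the other WT libraries. Over all libraries the log2 fold change was -0.35 (SE 0.13, limma-trend unadjusted p = 0.0234, adjusted p = 0.379). Without WT replicate 3 the Peg10 value was -0.17 and the call held, while it was lost without Rag1-/- replicate 1 or Rag1-/- replicate 3, with -0.36 and -0.34. Ppp1r9a (chr6:4903320-5165661, plus strand, neurabin, an actin-binding protein of synapses, maternally expressed) was at 163, 163 and 168 CPM under the WT label and 143, 155 and 154 CPM under the Rag1-/- label. All Rag1-/- values lay below WT, and the log2 fold change was -0.13 (SE 0.04, limma-trend unadjusted p = 0.0181, adjusted p = 0.372). The Ppp1r9a call was lost without Rag1-/- replicate 1, with -0.09, and also with median-of-ratios rescaling (-0.09), quantile normalization (-0.10) and limma without trend, the last of which ended the Peg10 call too. Sgce (epsilon-sarcoglycan), whose start lies beside that of Peg10 on the other strand, was at 25.1, 27.2 and 28.0 CPM under the WT label and 25.5, 27.5 and 25.9 CPM under the Rag1-/- label. No genotype difference was detectable in Sgce, where the log2 fold change was -0.02 (SE 0.06, limma-trend unadjusted p = 0.712, adjusted p = 0.902). Asb4, a ubiquitin ligase subunit, ranged from 4.67 to 9.49 CPM and Calcr, the calcitonin receptor, from 2.62 to 6.35 CPM, both with their highest value in WT replicate 3 and neither with an unadjusted p of at most 0.05. Without WT replicate 3 the value of Calcr turned from -0.08 to 0.28, and without WT replicate 1 it was -0.35. The Asb4 value was -0.06 without WT replicate 3 and -0.56 without WT replicate 1, the latter past the unadjusted threshold.

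Mest, a paternally expressed hydrolase, and Copg2, a coat protein subunit of transport vesicles, overlap by 913 bases on opposite strands. Mest (chr6:30733506-30748466, plus strand) was at 15.8, 18.3 and 22.4 CPM under the WT label and 14.3, 12.9 and 16.0 CPM under the Rag1-/- label. WT replicate 1 and Rag1-/- replicate 3 were nearly equal, and the log2 fold change was -0.37 (SE 0.13, limma-trend unadjusted p = 0.0180, adjusted p = 0.372). The call was lost without Rag1-/- replicate 2, with -0.30, and held without WT replicate 3, with -0.24. Copg2 was at 74.8, 80.6 and 74.3 CPM under the WT label and 67.7, 70.9 and 74.5 CPM under the Rag1-/- label. Its groups overlapped slightly, and the log2 fold change was -0.11 (SE 0.05, limma-trend unadjusted p = 0.0687, adjusted p = 0.465). Copg2 passed the unadjusted threshold without WT replicate 3 or Rag1-/- replicate 3, with -0.13 and -0.14, but was at -0.07 without WT replicate 2 or Rag1-/- replicate 1.

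Nnat lies inside Blcap on the other strand, with 2448 bases shared. Blcap (chr2:157556362-157566361, minus strand), a small membrane protein whose isoforms are imprinted differently in brain, was at 129, 119.6 and 124 CPM under the WT label and 107, 115 and 110.2 CPM under the Rag1-/- label. The groups were separate, and the log2 fold change was -0.16 (SE 0.05, limma-trend unadjusted p = 0.00662, adjusted p = 0.340), with values from -0.19 to -0.14 when 1 library was left out. Nnat (neuronatin, a paternally expressed membrane protein of neurons and endocrine cells) was at 244, 239 and 393 CPM under the WT label and 276, 315 and 231 CPM under the Rag1-/- label. WT replicate 3 was the highest library by 1.25-fold, and the log2 fold change was -0.06 (SE 0.19, limma-trend unadjusted p = 0.741, adjusted p = 0.915). The Nnat value was 0.17 without WT replicate 3 and -0.19 without WT replicate 2.

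Trappc9 and the noncoding RNA Peg13, which lies inside it, share 4725 bases on the same strand in the deposited intervals. Trappc9 (chr15:72589620-73061204, minus strand), a subunit of a vesicle tethering complex with maternal bias in brain, was at 79.1, 74.8 and 77.7 CPM under the WT label and 69.7, 68.8 and 73.3 CPM under the Rag1-/- label. Peg13 (chr15:72805600-72810324, minus strand), paternally expressed, was at 418, 424 and 414 CPM under the WT label and 378, 379 and 409 CPM under the Rag1-/- label. Both genes were lower in every library labelled Rag1-/-. For Trappc9 the log2 fold change was -0.13 (SE 0.04, limma-trend unadjusted p = 0.0183, adjusted p = 0.372). For Peg13 the log2 fold change was -0.11 (SE 0.05, limma-trend unadjusted p = 0.0414, adjusted p = 0.421). The Trappc9 call was lost, with values from -0.12 to -0.11, without WT replicate 1, Rag1-/- replicate 1 or Rag1-/- replicate 2, and also with median-of-ratios rescaling (-0.09), quantile normalization (-0.08) and the term for Xist described below. The Peg13 call held in only 1 of the 6 fits, that without Rag1-/- replicate 3, and its values were -0.12 to -0.09 in the other 5. It was lost as well with median-of-ratios rescaling (-0.07), quantile normalization (-0.08), limma without trend and the Xist term. Whether reads of overlapping genes were separated by strand is not given in the sources used here, so values of such pairs may share reads.

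The Dlk1-Dio3 cluster on chromosome 12 held no gene with an unadjusted p of at most 0.05. Dlk1, a paternally expressed ligand-like protein that holds back differentiation, was at 80.4, 88.3 and 102 CPM under the WT label and 77.6, 80.8 and 79.9 CPM under the Rag1-/- label. Its WT replicate 1 lay within the Rag1-/- range, and the log2 fold change was -0.18 (SE 0.08, limma-trend unadjusted p = 0.0521, adjusted p = 0.435). Without WT replicate 1 the Dlk1 value was -0.26, past the unadjusted threshold, and without WT replicate 3 it was -0.08. Meg3, the maternally expressed long noncoding RNA of the cluster, was at 756, 628 and 972 CPM under the WT label and 654, 777 and 711 CPM under the Rag1-/- label. Both the highest and the lowest Meg3 values were in WT, and the log2 fold change was -0.12 (SE 0.14, limma-trend unadjusted p = 0.420, adjusted p = 0.763). The Meg3 value was 0.05 without WT replicate 3 and -0.27 without WT replicate 2, the latter past the unadjusted threshold. Rian and Mirg, noncoding RNAs downstream of Meg3 that host snoRNAs and microRNAs, had log2 fold changes of -0.01 and -0.11. Rtl1, a gene of retrotransposon origin read from the paternal copy, ranged from 3.31 to 5.03 CPM with the highest value again in WT replicate 3, and its value of -0.01 was 0.18 without that library and -0.11 without WT replicate 1.

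H19 and Igf2 are the classic pair of a noncoding RNA from the maternal copy and a growth factor from the paternal copy. Igf2 was at 119.7, 135 and 169 CPM under the WT label and 99.95, 167 and 134 CPM under the Rag1-/- label. The spread within each genotype exceeded the difference, and the log2 fold change was -0.10 (SE 0.18, limma-trend unadjusted p = 0.606, adjusted p = 0.855). The 10 meningeal fibroblast genes examined, which mark the brain coverings where Igf2 is known to be high, summed to 126, 139 and 184 CPM under the WT label and to 108, 140 and 134 CPM under the Rag1-/- label. Igf2 and this sum were thus lowest together in Rag1-/- replicate 1 and highest together in WT replicate 3; their relation was not tested. H19 was at 1.32, 1.66 and 3.19 CPM under the WT label and 1.99, 3.33 and 2.31 CPM under the Rag1-/- label. WT replicate 3 lay far from the other WT libraries, and the log2 fold change was 0.36 (SE 0.31, limma-trend unadjusted p = 0.281, adjusted p = 0.673). The H19 value was 0.10 without WT replicate 1, 0.15 without Rag1-/- replicate 2 and 0.71 without WT replicate 3, and only the last passed the unadjusted threshold.

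Igf2r, the maternally expressed receptor that clears IGF2, was at 35.6, 36.5 and 41.2 CPM under the WT label and 31.1, 33.7 and 36.2 CPM under the Rag1-/- label. Its groups overlapped, and the log2 fold change was -0.17 (SE 0.08, limma-trend unadjusted p = 0.0568, adjusted p = 0.444). Igf2r passed the unadjusted threshold without WT replicate 1 or Rag1-/- replicate 3, with -0.21 and -0.22, but was at -0.10 without WT replicate 3 and at -0.11 without Rag1-/- replicate 1. Airn, the paternal noncoding RNA that overlaps Igf2r by 28396 bases on the other strand, was at 1.01, 0.668 and 1.70 CPM under the WT label and 0.982, 1.62 and 1.34 CPM under the Rag1-/- label. For Airn the log2 fold change was 0.27 (SE 0.31, limma-trend unadjusted p = 0.417, adjusted p = 0.761), and the value was 0.58 without WT replicate 3 and -0.03 without WT replicate 2.

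In the Kcnq1 cluster no gene passed the unadjusted threshold. Cdkn1c, a maternally expressed cell cycle inhibitor, was at 11.3, 15.7 and 15.1 CPM under the WT label and 14.7, 14.3 and 15.5 CPM under the Rag1-/- label. Only WT replicate 1 stood below the rest, and the log2 fold change was 0.09 (SE 0.12, limma-trend unadjusted p = 0.455, adjusted p = 0.781). Nap1l4, a histone chaperone, was at 116, 123 and 120.2 CPM under the WT label and 115, 109.8 and 117 CPM under the Rag1-/- label. Its groups overlapped, and the log2 fold change was -0.07 (SE 0.04, limma-trend unadjusted p = 0.152, adjusted p = 0.559). Kcnq1ot1, the paternal noncoding RNA that silences the cluster, was at 6.49, 7.07 and 9.31 CPM under the WT label and 6.23, 7.22 and 6.70 CPM under the Rag1-/- label. WT replicate 3 was again the highest library, and the Kcnq1ot1 log2 fold change was -0.17 with all libraries, -0.01 without it and -0.27 without WT replicate 1. Slc22a18, an organic cation transporter, was at 0.254 to 0.520 CPM with about 8 reads in the lowest library, and no difference was detected at this depth.

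The remaining 4 genes are loci of their own. Gnas, which encodes the stimulatory G protein subunit and has isoforms of different imprinting, was at 1594, 1622 and 1632 CPM under the WT label and 1695, 1530.3 and 1601 CPM under the Rag1-/- label. Its groups overlapped and the log2 fold change was -0.01 (SE 0.06, limma-trend unadjusted p = 0.897, adjusted p = 0.970). Nap1l5, a paternally expressed histone chaperone relative, was at 658, 683 and 613 CPM under the WT label and 641, 678 and 632 CPM under the Rag1-/- label. Group means of Nap1l5 were both 651 CPM, and the log2 fold change was 0.00 (SE 0.05, limma-trend unadjusted p = 0.996, adjusted p = 0.998). Impact, a paternally expressed regulator of translation, was at 362, 353 and 324 CPM under the WT label and 306, 335 and 323 CPM under the Rag1-/- label. The groups of Impact overlapped, and the log2 fold change was -0.11 (SE 0.05, limma-trend unadjusted p = 0.0835, adjusted p = 0.485). Impact passed the unadjusted threshold without WT replicate 3, with -0.15, and lay between -0.15 and -0.07 in the 6 fits that left out 1 library. Inpp5f, a phosphoinositide phosphatase with a paternal brain isoform, was at 134, 139 and 126 CPM under the WT label and 128, 127 and 135 CPM under the Rag1-/- label, and the log2 fold change was -0.03 (SE 0.05, limma-trend unadjusted p = 0.551, adjusted p = 0.830).

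WT replicate 3 held the highest of the 6 values in 20 of the 40 imprinted genes (50%), against 28.7% of all genes tested. The median deviation of the imprinted genes from their own mean was 0.10 in that library on the log2 scale, 0.01 and 0.04 in WT replicates 1 and 2, and between -0.11 and -0.02 in the libraries labelled Rag1-/-. Rag1-/- replicate 1 held the lowest value in 16 of the 40 (40%), against 24.9% of all genes tested. In Magel2, WT replicate 3 exceeded the next highest library by 1.68-fold, in Asb4 by 1.58-fold, in Calcr by 1.57-fold and in Peg10 by 1.40-fold. A list of 25 hypothalamus genes, added after values had been seen, shares Pomc with the pituitary list. Its other 24 genes summed to 452 CPM in WT replicate 3, to 308 CPM in Rag1-/- replicate 2 and to 188 to 244 CPM in the other libraries, and 16 of the 23 genes of the whole list that were tested were highest in WT replicate 3. Avp (vasopressin) was at 85.2 CPM there and at 0.458 to 4.61 CPM elsewhere, and Pomc was at 246 CPM and at 1.73 to 3.19 CPM. Pmch and Hcrt, of the lateral hypothalamus, were about as high in Rag1-/- replicate 2, at 71.6 and 49.1 CPM, as in WT replicate 3, at 67.1 and 47.0 CPM. The part of these transcripts in the levels of the imprinted genes was not tested. Without WT replicate 3, 4 of the 14 lower genes lost their call, Zim1 (-0.24), Magel2 (-0.23), Peg13 (-0.12) and Grb10 (-0.11). The other 10 were still called, among them Zdbf2 (-0.24), Plagl1 (-0.24), Peg3 (-0.20), Blcap (-0.17) and Usp29 (-0.16).

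**Figure D3:**
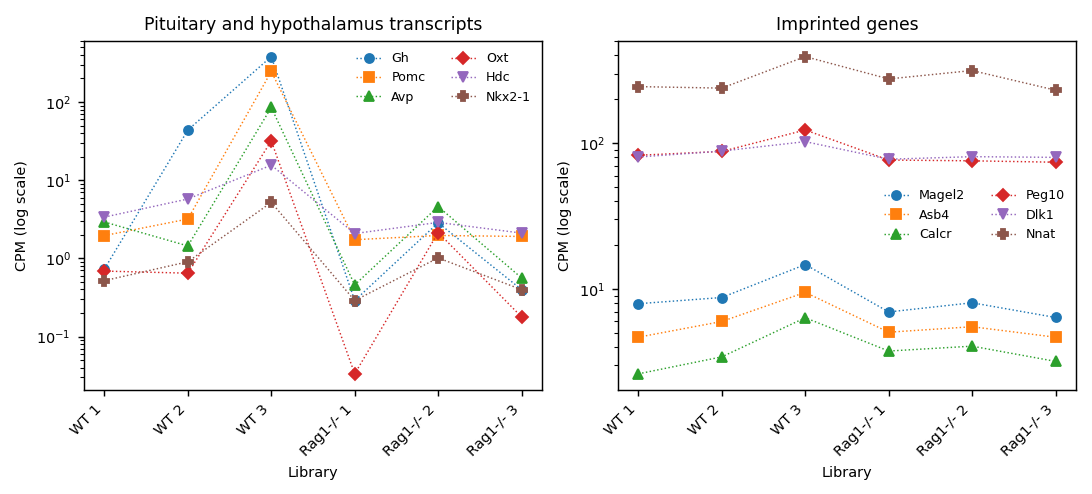
CPM on a log axis (y axis) in each of the 6 libraries (x axis), on the left for 6 pituitary and hypothalamus transcripts and on the right for 6 imprinted genes; dotted lines join the points of a gene and carry no order. WT replicate 3 is the highest library for all 12 genes shown, with Magel2 at 14.7 CPM against 6.38 to 8.74 CPM in the others. These 12 do not stand for their lists: it is highest in 20 of the 40 imprinted genes and 16 of the 23 hypothalamus genes tested.

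**Figure D4:**
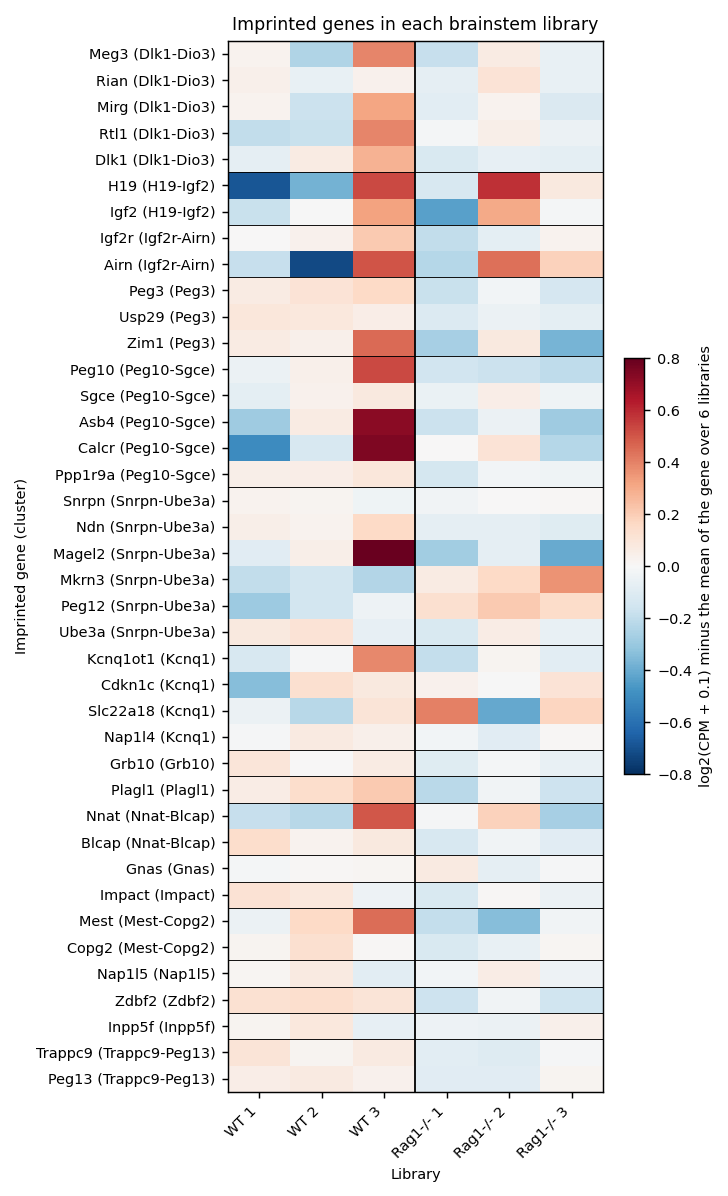
Log2(CPM + 0.1) minus the mean of each gene over the 6 libraries (colour, from blue below to red above) for the 40 imprinted genes (rows, by cluster) and the 6 libraries (columns, with a line between the genotypes). WT replicate 3 holds the highest value in 20 genes and Rag1-/- replicate 1 the lowest in 16, against 28.7% and 24.9% of all genes tested.

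Adding a term for the 2 libraries with Xist above 100 CPM leaves the genotype difference to rest on WT replicate 3 as the 1 WT library. In that fit 20 imprinted genes (50%, against 12.3% of all genes) were called lower, 9 of them not called without the term. These 9 were Asb4 (-0.89), Calcr (-0.78), Nnat (-0.53), Kcnq1ot1 (-0.47), Meg3 (-0.45), Rtl1 (-0.40), Mirg (-0.37), Dlk1 (-0.37) and Igf2r (-0.29), each with a value over 1.5 times that without the term. Also, 2 imprinted genes (5%, against 0.799% of all genes) had an adjusted p under 0.05 by limma-trend. They were Peg10, with -0.71 (adjusted p = 0.00584, range over the alternatives 0.00584 to 0.743), and Magel2, with -1.04 (adjusted p = 0.0304, range 0.0304 to 0.761).

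The expressed allele was taken from textbooks and may not hold in the brainstem for every gene. Divided by it, 9 of 21 paternally expressed genes (42.9%) were lower at unadjusted p of at most 0.05 and 1 (4.76%) was higher. These shares stood against 9.29% and 2.27% of all genes tested, and the median log2 fold change was -0.11. Of 15 maternally expressed genes 3 (20%) were lower and none higher, and the median was also -0.11. The difference between these shares was not tested. Of the 4 genes listed with an expressed copy that depends on tissue or isoform, Grb10 and Blcap were lower. Levels could be compared between genes only per length of annotated exon. In CPM per kb over WT, Nap1l5 stood highest at 353, followed by Snrpn at 214, Nnat at 203, Gnas at 156, Impact at 92.0, Peg13 at 88.6 and Ndn at 81.4, and Kcnq1ot1 was lowest at 0.0819. The values of Snrpn and Nnat did not differ beyond the spread of Nnat, whose WT libraries ran from 239 to 393 CPM.

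Pairs that share a promoter, transcription unit or control region were compared over the 6 libraries, 10 pairs in all. The levels of Meg3 and Mirg had Pearson r = 0.97 (exact permutation p = 0.0167, adjusted p = 0.0926) and Spearman rho = 0.89 (exact permutation p = 0.0333, adjusted p = 0.194). Peg3 and Usp29 had r = 0.92 (exact permutation p = 0.0278, adjusted p = 0.0926) and rho = 0.77 (exact permutation p = 0.103, adjusted p = 0.206). For Ndn and Magel2 r was 0.91 (exact permutation p = 0.0250, adjusted p = 0.0926) and rho 0.83 (exact permutation p = 0.0583, adjusted p = 0.194). None of the 10 passed after adjustment. Without the 2 libraries farthest from the median of the first gene, r was 0.80 for Meg3 and Mirg, 0.71 for Peg3 and Usp29 and 0.59 for Ndn and Magel2. The other 7 pairs had r from 0.19, for Nnat and Blcap, to 0.79, for Snrpn and Ube3a. Without the 2 farthest libraries r went from 0.57 to 0.98 for Mest and Copg2, from 0.79 to 0.37 for Snrpn and Ube3a and from 0.19 to -0.39 for Nnat and Blcap, and median-of-ratios rescaling took Snrpn and Ube3a to 0.47. Peg10 and Sgce, with r = 0.59, turned to -0.57 without WT replicates 2 and 3, and this relation rested on those libraries. Each pair includes both genotypes, so a genotype difference enters r, and 3 libraries per genotype are too few for a value within each.

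Of 26 genes that set or keep imprints, 23 were tested, and their called shares of 4.35% higher and 8.7% lower lay near the 2.27% and 9.29% of all genes, so these calls are no result about the list. Ezh2 (a histone methyltransferase) was higher at unadjusted p of at most 0.05 with a log2 fold change of 0.28, and Zfp445 and Ctcf were lower with -0.11 and -0.12. Zfp445 is a zinc finger protein that protects imprints with ZFP57, and CTCF insulates the H19-Igf2 region. Of 46 further imprinted genes tested out of 53 listed, Cd81 (2.17%, near the share of all genes) was higher with 0.13 and 7 (15.2%, against 9.29%) were lower, among them Slc38a4, Ago2, Cobl and Dcn. Of 13 genes tested on the IGF axis, where Igf2, Igf2r and Grb10 act, 3 (23.1%, against 9.29%) were lower: the receptors Igf1r and Insr, with -0.17 each, and the adaptor Irs2, with -0.25 (limma-trend adjusted p = 0.221). The median log2 fold changes of these 3 lists were -0.04, -0.06 and -0.02, against -0.05 over all genes tested, and no gene of them had an adjusted p under 0.05 by limma-trend.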

How the data were processed

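Total RNA of snap-frozen brainstem from 3 WT and 3 Rag1-/- mice was sequenced on an Illumina HiSeq. Per the labels and the methods of the study, the authors aligned reads to mm10 with STAR 2.5.3a, quantified RefSeq Transcripts 83 in Partek Flow 8.0 and deposited normalized counts as CPM for 18058 genes, with 0.0001 added. The library kit and its strand setting are not given in the sources used here. The genes of the table held 79.1% to 80.4% of each library's total.

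Log2(CPM + 0.1) of the 16762 genes whose mean reached 0.1 CPM was tested with limma-trend (limma 3.58.1, R 4.3.3), the model family named in the methods of the study, without covariates and with Benjamini-Hochberg adjustment over all genes tested. Fold changes on this scale understate those of low genes. Of the filter of the study only its threshold on unadjusted p, at most 0.05, was used; no imprinted gene reached the limit on the fold change that the study set beside it. Exact permutation tests used SciPy 1.17.1 and were two-sided. The test was checked on simulated data. Depth was inferred from the spacing of low values, of which 85.4% to 87.1% came to whole reads within a tolerance of 0.1 read. This was too few to recover reads, and a count test was not used. Ranges of reads cover counting error only.

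The imprinted genes, their clusters and the gene lists were chosen with earlier results of these data known, and their shares are read against all genes tested. Values in every library were given for imprinted genes with unadjusted p of at most 0.05, for the gene of highest CPM in each cluster and its counterpart from the other allele, and for H19, Igf2, Dlk1, Cdkn1c and Meg3. Peg12, Asb4 and Calcr were described after their values were seen, as were the set of 4 Hox genes, the hypothalamus list and further members given in full. Expressed alleles are textbook knowledge. Some results of the other lists are not reported here. Of the marker lists, genes of 10 choroid plexus, 10 meningeal fibroblast, 8 pituitary, 9 neuron, 4 serotonin neuron, 6 skeletal muscle, 6 oligodendrocyte and 6 endothelial markers were tested. At unadjusted p of at most 0.05, 3, 2, 4, 0, 0, 0, 0 and 0 of them were lower, against 9.29% of all genes tested. Only the oligodendrocyte list had higher ones, against 2.27% of all genes tested. Summed levels were 52.0 to 150.4 CPM for serotonin neuron, 2.96 to 4.48 CPM for muscle, 183 to 225 CPM for endothelial and 4225 to 4553 CPM for neuron genes. Promoter windows are the 250 bases before RefSeq starts on GRCm38.p6, and exon lengths are of GENCODE genes. Interval ends are 1 base before the deposited stop. The alternatives were pseudocounts of 1 and 0.01, no filter or a mean of at least 1 CPM, 2 rescalings, limma without trend, a term for Xist above 100 CPM, leaving out each library and a block for the replicate number.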

Additional observations from a re-analysis of the deposited data

How the results depend on the processing

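No adjusted call among the imprinted genes was made under any alternative except the Xist term, which gave 2, together with 20 lower genes and a median log2 fold change of -0.19. Lower imprinted genes numbered 8 with median-of-ratios rescaling, 8 with quantile normalization and 8 in limma without trend; higher ones numbered 2 with quantile normalization and 2 without trend. Leaving out 1 library gave 7 (without Rag1-/- replicate 1) to 14 lower, 0 (without Rag1-/- replicate 3) to 2 (without WT replicate 3) higher, and medians of -0.14 to -0.07. Of the 14 lower genes, 8 remained lower under each of these 2 rescalings. The cause of these moves was not tested.

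The deviations of same-numbered libraries had correlations of 0.09, -0.22 and -0.02, and those of differently numbered ones ran from -0.18 to 0.18. Values from so few libraries cannot decide whether same-numbered libraries were paired, and the labels do not say what the number means. The replicate block gave 13 lower (32.5%, against 6.59% of all genes), 1 higher (2.5%, against 1.52%) and 0 adjusted calls, with 11 of the 14 still lower. Zim1, Grb10 and Peg13 lost and Dlk1 and Igf2r gained a call with the block.

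Some values changed sign, among them H19 and Airn with the Xist term and Calcr without WT replicate 3. Median-of-ratios rescaling moved the median of all genes by 0.041 and quantile normalization by 0.053 on the log2 scale. With median-of-ratios rescaling the log2 fold changes were 0.030 for Rian, 0.031 for Rtl1, 0.019 for Sgce, 0.033 for Snrpn, 0.035 for Gnas, 0.042 for Nap1l5 and 0.012 for Inpp5f. With quantile normalization they were 0.016 for Rian, 0.055 for Rtl1, 0.012 for Sgce, 0.0072 for Snrpn and 0.049 for Nap1l5. With the Xist term they were -0.35 for H19, -0.37 for Airn, 0.033 for Snrpn, 0.028 for Ube3a, -0.032 for Cdkn1c, -0.045 for Slc22a18, 0.086 for Nap1l5 and 0.048 for Inpp5f. Leaving out 1 library moved the value from -0.070 to 0.019 for Rian, -0.030 to 0.0043 for Snrpn, -0.056 to 0.18 for Cdkn1c, -0.043 to 0.035 for Nap1l5, -0.028 to 0.58 for Airn, -0.070 to 0.0041 for Inpp5f, -0.27 to 0.047 for Meg3, -0.23 to 0.014 for Mirg, -0.11 to 0.18 for Rtl1, -0.27 to 0.097 for Igf2, -0.069 to 0.010 for Sgce, -0.35 to 0.28 for Calcr, -0.19 to 0.17 for Nnat, -0.063 to 0.34 for Slc22a18 and -0.046 to 0.028 for Gnas. The r of Nnat and Blcap was -0.25 without WT replicate 3.

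Of 240 values from fits that left out a library, 182 kept direction and side of the threshold, 23 lost a call, 9 gained one and 26 reversed; of 358 others, 300 kept both, 25 lost a call, 13 gained one and 20 reversed. The correlation alternatives were chosen after seeing the data. With 3 mice per genotype, the 95% confidence interval of Slc22a18 ran from -0.51 to 0.73 and that of H19 from -0.35 to 1.06.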
